A study of Mus musculus with 37 samples.

Results

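Cells that held transcripts of both Myod1 and Mef2c were set against cells that held Mef2c without Myod1. A cell counted as having a factor when at least 1 unique molecular identifier (UMI, a tag that marks a single captured RNA molecule) of its gene was counted in it. Of 8563 cells, 198 (2.31%) had both factors, which was 8.88% of the 2230 cells with Mef2c and 56.3% of the 352 cells with Myod1. Of the 198 cells, 194 lay in 32 libraries with 3 or more such cells, between 3 and 17 per library with a median of 5. Each of the 194 was paired with the cell of its own library that had Mef2c, no Myod1 and a like total of UMIs.

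All cells were mouse embryonic fibroblasts of the ICR background, taken 7 days after infection with retroviral vectors that carried 48 factors as 1 pool. Transcripts were counted by Drop-seq, in which a droplet holds a cell and a bead whose barcoded primers take up its polyadenylated RNA. The 37 deposited libraries are labelled as technical replicates of 1 biological replicate, so the groups are cells from 1 culture, told apart by which factor transcripts were found in them. None of the libraries was uninfected, and the sources used here do not give the promoter of the vectors. P-values measure the spread between libraries of 1 culture, which may be technical, and do not extend to other cultures. The counts do not separate the delivered from the endogenous transcript of a factor, and a cell without a UMI of a factor may still carry it.

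MyoD, the product of Myod1, is a basic helix-loop-helix protein that can turn fibroblasts into skeletal muscle cells. It binds E-boxes as a dimer with E proteins such as the product of Tcf3, and it switches on Myog, whose product myogenin drives the withdrawal of myoblasts from the cell cycle and their differentiation. MEF2 proteins, among them that of Mef2c, bind an A and T rich element and act together with MyoD and myogenin on genes of the contractile apparatus, and Mef2c is itself a target of the myogenic factors. Mef2c also belongs to the factor sets used to turn fibroblasts into cardiomyocyte-like cells.

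The matched groups had like depths, with a median of 16475 UMIs per cell with both factors and 16378.5 per cell with Mef2c alone. Their medians were 4976 and 5115 genes per cell. Of the 41 other factors of the pool that were counted, the median cell had 13 in each group. The Mef2c level itself was not matched. Cells with both factors held a median of 5 Mef2c UMIs (range 1 to 129) and a mean of 14.7, and cells with Mef2c alone a median of 1 (range 1 to 37) and a mean of 2.28. Cells with both factors held a median of 2 Myod1 UMIs (range 1 to 46), and 71 of the 198 held only 1. The groups were chosen by the Myod1 and Mef2c UMI counts, which are given as a description. The share of UMIs from the mitochondrial genome was 0.736% in the median cell with both factors and 0.548% in the median cell with Mef2c alone. The 32 libraries came from 3 series by their names in the labels, JD (15 libraries), PZ47-PZ48 (12) and PZ58 (5), and 9 of the 32 stood apart with a high level of the ribosomal gene Rps27a.

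The added detection of Myod1 went with a broad and steep difference in one direction and a broad and shallow one in the other. Of 13213 genes tested with edgeR's quasi-likelihood test on counts summed per library and group, 1200 (9.08%) were higher and 857 (6.49%) lower in cells with both factors than in cells with Mef2c alone at a Benjamini-Hochberg adjusted p under 0.05, 15.6% in all. The median log2 fold change was 1.28 over the higher genes and -0.62 over the lower ones, and -0.02 over all genes tested. At least 4-fold differences numbered 396 among the higher genes and 7 among the lower ones. Of the 2057 called genes, 1541 had the same sign within each of the 3 library series.

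Fewer genes were called in sets closer in Mef2c, which also held fewer pairs, and the part of each was not tested. With cells matched on the Mef2c UMI count up to 5 as well as on the total, 691 of 13120 genes (5.27%) were higher and 458 (3.49%) lower. The mean Mef2c count was then still 13.0 UMIs in cells with both factors and 5.97 in cells with Mef2c alone. Restricted to cells with 1 or 2 Mef2c UMIs (45 pairs in 10 libraries, a setting chosen after seeing the data), 147 of 10335 (1.42%) were higher and 40 (0.387%) lower. The fast and embryonic sarcomere genes described below were still higher in 17 of 18 tested under the first of these settings, at a median log2 fold change of 3.07, and in 11 of 13 under the second, at 3.62. These values are of summed counts. In single cells with 1 Mef2c UMI, the list had a median of 0.828 UMIs per 10000 with both factors (upper quartile 2.997, highest 270). With Mef2c alone the median was 0.633 (upper quartile 1.883, highest 93.6). The part of a few high cells in the sums was not tested.

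Regulators of the skeletal muscle lineage were higher in cells with both factors. Of 13 genes on the list of myogenic regulators, 9 had enough counts to be tested, and 6 of these were higher and none lower, at a median log2 fold change of 1.96. Among the 6 were Myog, the transcriptional cofactor Vgll2, the RNA-binding regulator of muscle splicing Rbm24, and the transcriptional coactivators Eya2 and Eya4. Six4, Eya1 and the growth inhibitor Mstn were not called. Of the other myogenic helix-loop-helix genes, Myf5 had no count in either group, which allows up to 3 counts in each, and Myf6 had 3 counts in cells with both factors and 0 in cells with Mef2c alone.

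Myog stood at 0, 488 and 2821 CPM (counts scaled to 1000000 per library and group; lowest, median and highest of 32 libraries) in cells with both factors, against 0, 0 and 117 CPM in cells with Mef2c alone. It was higher in cells with both factors in 31 of 32 libraries and 0 in both groups in the remaining one, and the ranges overlapped only through the lowest libraries of the first group. The log2 fold change was 5.82 ± 0.33 (SE; adjusted p = 2.06e-20), and within the library series 5.38 (JD), 8.53 (PZ47-PZ48) and 4.51 (PZ58). Rbm24 stood at 5.29, 64.1 and 232 CPM with both factors, against 0, 0 and 24.2 CPM with Mef2c alone, and was higher in all 32 libraries (log2 fold change 4.68 ± 0.30, adjusted p = 2.20e-18). Vgll2 had 234 counts in cells with both factors and 1 in cells with Mef2c alone.

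Genes of the myoblast surface and of cell fusion followed. Of 11 tested, 9 were higher and none lower, at a median log2 fold change of 1.17. The 2 muscle-specific fusion proteins, myomaker (Mymk) and myomixer (Mymx), and the adhesion molecule M-cadherin (Cdh15) led the list, and Ncam1, Itga7, Jam3, Cdon, Tspan33 and Stac3, whose product couples excitation to contraction, were also called. Boc and Neo1, receptors that pair with Cdon, were not called. Mymx had 657 counts in cells with both factors and none in cells with Mef2c alone, at least 215-fold higher against a floor of 3 counts over the group. Its level was 0, 140 and 665 CPM in cells with both factors, with 2 of 32 libraries at 0, against 0 CPM in every library of cells with Mef2c alone.

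Mymk stood at 2.64, 554 and 2550 CPM with both factors, against 0, 0 and 246 CPM with Mef2c alone (log2 fold change 5.87 ± 0.29, adjusted p = 3.80e-23, higher in 31 of 32 libraries). Cdh15 stood at 0, 194 and 507 CPM with both factors, against 0, 0 and 37.0 CPM with Mef2c alone (4.67 ± 0.25, adjusted p = 1.93e-21, higher in 31 of 32). For both genes no library of cells with Mef2c alone reached the median of the cells with both factors, and the 9 lowest libraries with both factors for Mymk and the 5 lowest for Cdh15 lay within the range of the cells with Mef2c alone.

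**Figure D1:**
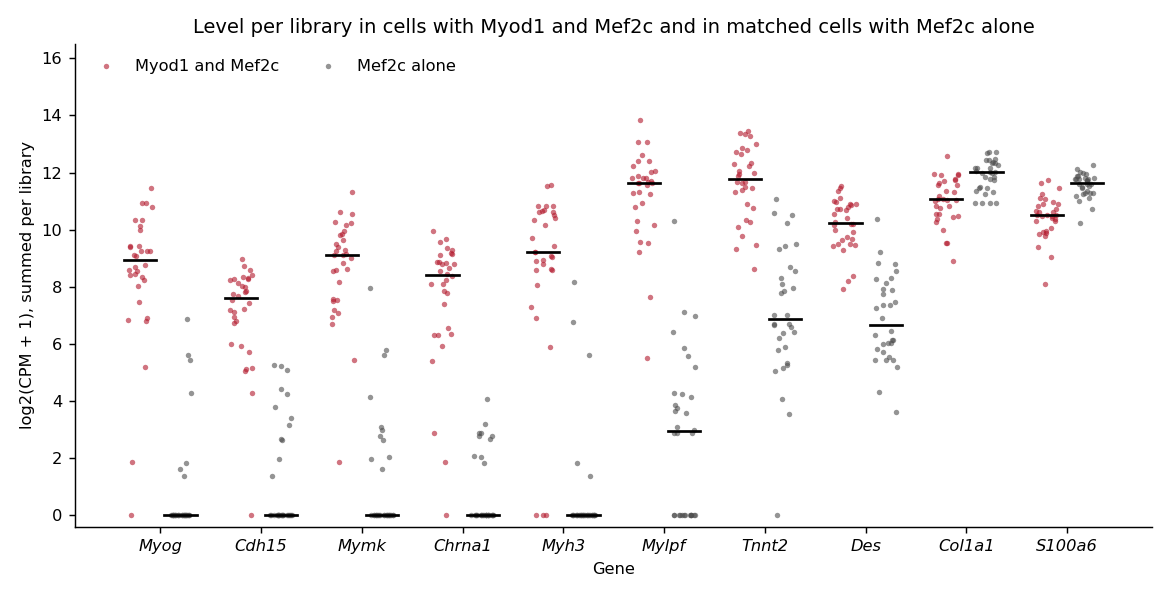
Level of 10 genes as log2(CPM + 1) of counts summed per library, with 1 point for each of 32 libraries, cells with Myod1 and Mef2c at the left of each pair and matched cells with Mef2c alone at the right. Black lines are medians. Most libraries of cells with Mef2c alone lie at 0 for Myog, Cdh15, Mymk, Chrna1 and Myh3, while Col1a1 and S100a6 are lower in cells with both factors, with overlap.

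Every tested subunit of the muscle acetylcholine receptor and every tested scaffold gene of the neuromuscular synapse was called higher by edgeR. All 8 genes tested of 9 were called, at a median log2 fold change of 3.86, or 4.06 with the 2 genes without counts in cells with Mef2c alone set at their bound. They were the receptor subunits Chrna1, Chrnb1, Chrnd and Chrng, the clustering protein Rapsn, the agrin receptor pair Musk and Lrp4 and their adaptor Dok7. Chrnd, Dok7 and Musk had 71, 76 and 78 counts with both factors and 0, 0 and 2 with Mef2c alone. They had enough counts to be tested only through the cells with both factors, so a lower call was hardly open to them. DESeq2 called 5 of the 8 higher. Chrng encodes the subunit of the fetal receptor, and Chrne, which replaces it in the adult, had too few counts to be tested. Chrna1 stood at 0, 343 and 982 CPM with both factors, against 0, 0 and 15.8 CPM with Mef2c alone (log2 fold change 6.14 ± 0.26, adjusted p = 5.54e-25, higher in 30 of 32 libraries). Chrng had 509 counts with both factors and 3 with Mef2c alone, a ratio of 166.8 (exact 95% counting interval 56.8 to 812, which covers counting error only), and was higher in 29 of 32 libraries. Rapsn showed a smaller difference, at 10.6, 46.2 and 274 CPM with both factors, against 0, 0 and 37.0 CPM with Mef2c alone (3.39 ± 0.28, adjusted p = 2.68e-14), yet it was higher in all 32 libraries.

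The 250 bases before the start of 5 of the leading genes are shown because MyoD and myogenin bind E-boxes, and these genes were among the most different. The sequences are from RefSeq on build GRCm38.p6, read 5′ to 3′ on the strand of the gene, with each E-box (CANNTG, the same on both strands) in capitals. The windows are chr2:73580339-73580588 (minus strand) for Chrna1, chr1:87205561-87205810 (plus) for Chrng, chr7:127211358-127211607 (plus) for Mylpf, which encodes a fast myosin light chain, chr19:42035777-42036026 (plus) for Ankrd2, an ankyrin repeat protein of the sarcomere and nucleus, and chr1:134289754-134290003 (plus) for Myog.
Chrna1: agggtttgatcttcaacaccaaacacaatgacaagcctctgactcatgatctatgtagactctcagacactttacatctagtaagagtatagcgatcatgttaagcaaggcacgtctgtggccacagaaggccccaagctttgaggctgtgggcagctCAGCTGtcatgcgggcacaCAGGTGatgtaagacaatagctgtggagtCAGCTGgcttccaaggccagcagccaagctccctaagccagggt
Chrng: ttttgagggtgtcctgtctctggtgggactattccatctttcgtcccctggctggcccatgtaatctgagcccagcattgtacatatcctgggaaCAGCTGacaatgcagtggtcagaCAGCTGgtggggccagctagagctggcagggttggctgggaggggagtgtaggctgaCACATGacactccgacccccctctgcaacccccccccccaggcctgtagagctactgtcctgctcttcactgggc
Mylpf: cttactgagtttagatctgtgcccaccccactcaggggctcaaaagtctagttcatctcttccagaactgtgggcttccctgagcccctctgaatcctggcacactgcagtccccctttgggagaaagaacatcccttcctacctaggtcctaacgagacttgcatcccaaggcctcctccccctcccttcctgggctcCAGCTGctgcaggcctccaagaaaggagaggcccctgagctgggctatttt
Ankrd2: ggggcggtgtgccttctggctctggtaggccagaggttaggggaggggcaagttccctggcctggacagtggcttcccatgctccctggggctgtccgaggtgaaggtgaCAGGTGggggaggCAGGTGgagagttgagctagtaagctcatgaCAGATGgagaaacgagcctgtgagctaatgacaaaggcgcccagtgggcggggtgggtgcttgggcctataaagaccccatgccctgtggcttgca
Myog: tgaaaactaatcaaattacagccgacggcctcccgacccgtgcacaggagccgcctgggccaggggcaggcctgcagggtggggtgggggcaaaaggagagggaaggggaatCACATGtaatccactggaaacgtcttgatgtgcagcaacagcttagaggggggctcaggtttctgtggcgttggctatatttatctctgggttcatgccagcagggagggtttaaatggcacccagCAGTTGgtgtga
The Chrna1 window held 3 E-boxes, of which CAGCTG began 92 and 44 bases before the start and CAGGTG 73 bases before it. Chrng held CAGCTG at 155 and 132 bases and CACATG at 75 bases before the start, and Mylpf held 1 CAGCTG at 51 bases. Ankrd2 held CAGGTG at 140 and 127 bases and CAGATG at 96 bases, and Myog held CACATG at 138 bases and CAGTTG at 12 bases. Among all 32851 promoter windows of this length in the same table, 66.2% held at least 1 CANNTG and 31.8% at least 2, and CAGCTG was present in 13.0% and CAGGTG or its complement CACCTG in 17.2%. No window of the 5 held the strict MEF2 consensus, which 2.92% of all windows held. Between its 2 E-boxes, the Myog window held a stretch that missed this consensus at the last base only. The lack of a strict match therefore does not show that the Myog window lacks a MEF2 site. These matches describe the letters in the windows and no binding was measured.

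Sarcomere genes showed the steepest differences. Of 18 genes tested for fast and embryonic skeletal sarcomere proteins, all 18 were higher, at a median log2 fold change of 5.27, and of 27 genes for sarcomere proteins that heart and skeletal muscle share, 25 were higher and none lower, at a median of 4.26. The 2 exceptions were Myl2, the regulatory light chain of slow and ventricular muscle, and Xirp2. Of the myosin heavy chains, the embryonic Myh3 (log2 fold change 6.59 ± 0.34), the neonatal Myh8 (5.61), the adult fast Myh1 (4.89), Myh2 (3.36) and Myh4 (5.24) and the slow Myh7 (5.91) were all called. Heavy chains are alike in sequence, and how the authors treated reads that fit several places is not given in the sources used here.

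Myh3 stood at 0, 599 and 3041 CPM with both factors, against 0, 0 and 288 CPM with Mef2c alone, and was higher in 29 of 32 libraries and lower in none (adjusted p = 2.11e-21). Mylpf stood at 45.0, 3177 and 14680 CPM with both factors, against 0, 6.72 and 1273 CPM with Mef2c alone (6.81 ± 0.32, adjusted p = 5.44e-24, higher in all 32). Acta1, the skeletal alpha-actin, had a higher base, at 82.0, 2320 and 15480 CPM with both factors, against 0, 52.7 and 3220 CPM with Mef2c alone (4.64 ± 0.38, adjusted p = 1.08e-14, higher in 31 of 32). Unlike Myh3 and Mylpf, it had 1 library of cells with Mef2c alone above the median of the cells with both factors.

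Ankrd2 had the largest fitted log2 fold change of the genes tested, with 2064 counts in cells with both factors and 3 in cells with Mef2c alone, a ratio of 676 (exact 95% counting interval 231 to 3282). It was at 0, 146 and 2745 CPM with both factors and at 0, 0 and 7.46 CPM with Mef2c alone, and higher in 28 of 32 libraries. Titin (Ttn), the spring of the sarcomere, stood at 58.2, 1283 and 6570 CPM with both factors, against 0, 0 and 262 CPM with Mef2c alone (6.07 ± 0.29, adjusted p = 3.11e-23, higher in all 32). Cardiac alpha-actin (Actc1), which skeletal muscle makes before birth, stood at 2.64, 2545 and 9617 CPM with both factors, against 0, 5.02 and 2965 CPM with Mef2c alone (6.69 ± 0.38, adjusted p = 1.96e-20). Cardiac troponin T (Tnnt2), also made by embryonic skeletal muscle, was also counted without Myod1. The share of cells with Mef2c alone that held it was within the range allowed for free RNA, as described below. Tnnt2 stood at 398, 3511 and 11290 CPM with both factors, against 0, 116 and 2144 CPM with Mef2c alone. It differed less (4.08 ± 0.35, adjusted p = 6.61e-14, higher in all 32). The intermediate filament gene Des was likewise present in all libraries of both groups, at 243, 1201 and 2959 CPM with both factors, against 11.2, 103 and 1322 CPM with Mef2c alone (2.92 ± 0.26, adjusted p = 1.67e-13, higher in all 32).

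Genes on the heart muscle list, of which Gja1 is also made by fibroblasts, did not move as a block. Of 16 on the list, 10 were tested, of which 5 were higher (Myh6, Myl7, Mybpc3, Gja5 and Myh7b) and 1 lower (Gja1, the connexin of ventricular muscle and fibroblasts), at a median log2 fold change of 1.67. The natriuretic peptides Nppa and Nppb, the calcium pump inhibitor Pln and the sodium-calcium exchanger Slc8a1 were not called. Nppa had 14 counts with both factors and 17 with Mef2c alone, and cardiac troponin I (Tnni3) had 12 counts with both factors and 6 with Mef2c alone and was too low to test. Myh6, the atrial myosin heavy chain, had 211 counts with both factors and 3 with Mef2c alone, a ratio of 69.1 (exact 95% counting interval 23.3 to 338). It was higher in 27 of 32 libraries, at 0, 31.8 and 329 CPM with both factors and 0, 0 and 16.4 CPM with Mef2c alone. Matched on the Mef2c count, 3 of 11 tested were higher and 2 lower, and the median of the list was -0.14.

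Genes for excitation, calcium release and the sarcolemma were higher in most cases. Of 18 tested genes of excitation and calcium handling, 16 were higher and none lower, at a median log2 fold change of 4.08. They included the skeletal calcium release channel Ryr1 (4.48), its voltage sensor Cacna1s (4.92), the fast calcium pump Atp2a1 (4.17) and its inhibitor Sln, which had no count in cells with Mef2c alone. Ryr3 and Jph2 were not called. Casq2, a calcium store protein, stood at 0, 454 and 1520 CPM with both factors, against 0, 3.05 and 304 CPM with Mef2c alone (4.78 ± 0.29, adjusted p = 1.47e-19, higher in 31 of 32 libraries). Cacng1, a subunit of the skeletal calcium channel, had 421 counts with both factors and 2 with Mef2c alone.

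Of 15 genes of the dystrophin complex and sarcolemma, 11 were higher and none lower, at a median of 1.11. The muscle-specific alpha-sarcoglycan gene Sgca (5.01 ± 0.27, adjusted p = 3.03e-21) stood at 5.29, 64.2 and 247 CPM with both factors, against 0, 0 and 16.4 CPM with Mef2c alone, and was higher in all 32 libraries. Dmd itself differed by 0.78, and the widely made Dag1, Sgcd and Utrn were among those not called.

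Enzymes of the muscle energy supply were higher in 14 of 16 tested and lower in none, at a median log2 fold change of 3.39, or 3.71 with the 3 genes without counts in cells with Mef2c alone at their bound. Muscle creatine kinase (Ckm) had 135 counts with both factors and none with Mef2c alone, at least 44.2-fold higher, but 12 of 32 libraries of cells with both factors were at 0 too. Myoglobin (Mb) stood at 0, 179 and 1334 CPM with both factors, against 0, 0 and 799 CPM with Mef2c alone. Its log2 fold change was 5.27 ± 0.35 (adjusted p = 1.16e-17), higher in 30 of 32 libraries, but within the series 7.18 (JD), 5.29 (PZ47-PZ48) and 2.20 (PZ58). Pgam2, the muscle phosphoglycerate mutase, differed by 4.76 ± 0.28 (adjusted p = 3.82e-20). Cox7a1 and Ak1 were not called.

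**Figure D2:**
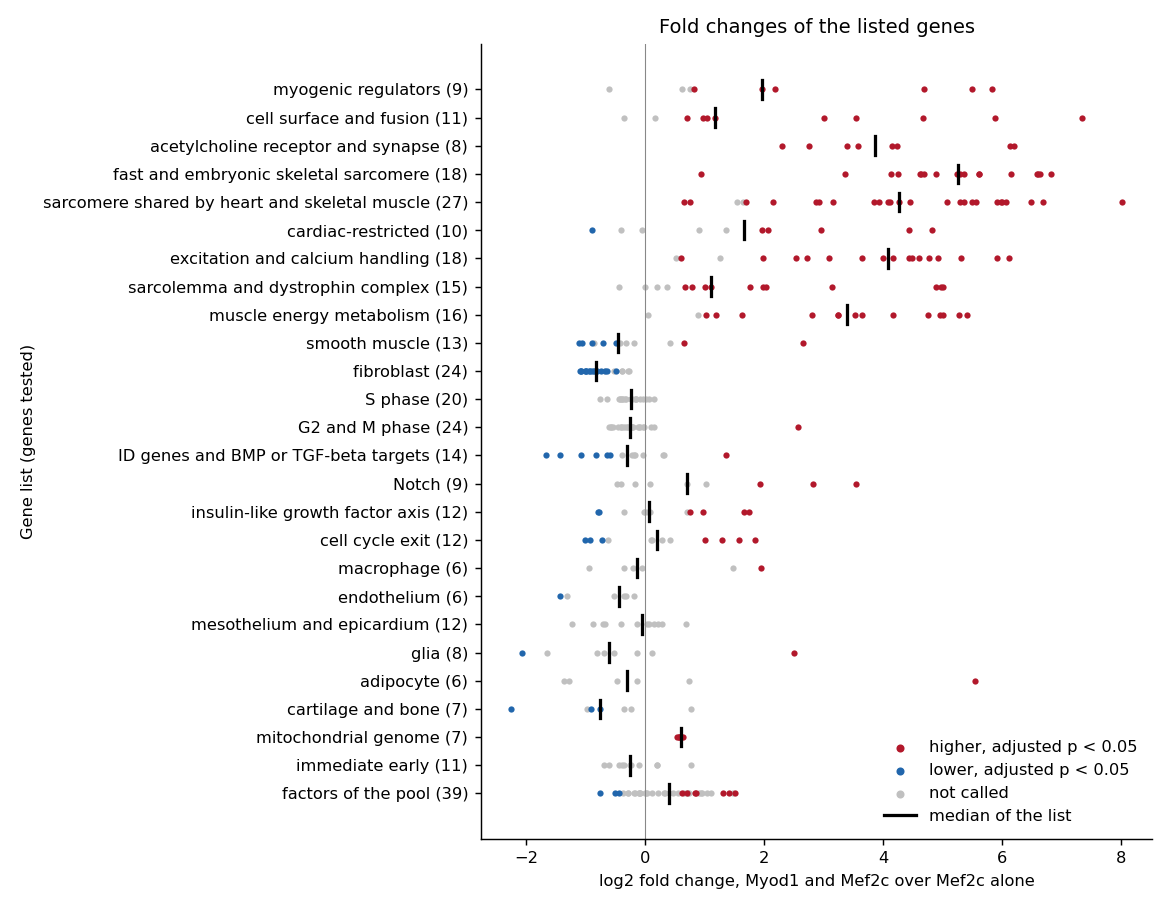
Log2 fold change of each tested gene, Myod1 and Mef2c over Mef2c alone, with 1 row per gene list, the number of genes tested in brackets and a black bar at the median of the list. Red points were higher and blue points lower at an adjusted p under 0.05. The sarcomere, receptor, calcium and energy lists lie to the right, with medians between 3.39 and 5.27, and the fibroblast list lies to the left at -0.82.

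Fibroblast genes were lower together, by at most 1.10 on the log2 scale. Of 24 tested, 17 were lower and none higher, at a median log2 fold change of -0.82, against 6.49% lower among all genes tested. The list summed to 7460, 19300 and 33880 CPM (lowest, median and highest library) in cells with both factors and to 21960, 31050 and 41250 CPM in cells with Mef2c alone, and was higher with both factors in 2 of 32 libraries. Collagen I, the main fibrillar collagen, was lower for Col1a1, at 473, 2132 and 6164 CPM with both factors, against 1940, 4108 and 6737 CPM with Mef2c alone (-0.85 ± 0.15, adjusted p = 2.00e-05, lower in 25 of 32). The calcium-binding protein S100a6 stood at 274, 1469 and 3379 CPM with both factors, against 1194, 3210 and 4925 CPM with Mef2c alone (-1.08 ± 0.14, adjusted p = 2.16e-08, lower in 30 of 32). The growth factor receptors Pdgfra (-1.10) and Pdgfrb (-0.99), the surface protein Thy1 and the mesenchymal regulators Prrx1, Twist1 and Twist2 were lower too, while Dcn, Lum, Cd34 and Ly6a were not called. Where the share of RNA of a cell that goes to muscle transcripts is higher, the CPM of other genes is lower. The fast and embryonic and the shared sarcomere lists summed to library medians of 11830 and 21640 CPM with both factors. With Mef2c alone they summed to 156 and 1611 CPM. The part of this in the lower fibroblast genes was not tested.

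Smooth muscle genes were split. Of 13 tested, 5 were lower (Acta2, Tagln, Cnn1, Cald1 and Mylk) and 2 higher (Synpo2 and Tpm2, which striated muscle also makes), at a median log2 fold change of -0.45. Tagln stood at 137, 832 and 2558 CPM with both factors, against 558, 1688 and 3327 CPM with Mef2c alone (-0.88 ± 0.18, adjusted p = 1.34e-04, lower in 25 of 32 libraries). Acta2, the smooth muscle actin of activated fibroblasts, differed by -0.49 ± 0.15 (adjusted p = 0.0196, lower in 23 of 32).

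Of 14 ID genes and targets or antagonists of BMP and TGF-beta, 6 were lower and 1, the BMP antagonist Nog, was higher. ID proteins hold E proteins away from MyoD, and Id3 was lower (-0.59 ± 0.15, adjusted p = 0.00319) while Id1 was not called (-0.19 ± 0.16, adjusted p = 0.526). Within the series, Id3 differed by -0.60 in JD and -0.94 in PZ47-PZ48 but by 0.32 in PZ58.

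The steepest falls were in genes of other kinds. Col2a1, the cartilage collagen, had the lowest fold change among the genes with 1 sign in all 3 series (-2.25 ± 0.40, adjusted p = 2.46e-05), at 0, 5.79 and 148 CPM with both factors, against 0, 45.1 and 517 CPM with Mef2c alone. The chemokine Ccl2 (-2.12 ± 0.35), the sulfotransferase Chst1 (-1.99 ± 0.44), the protease Klk8 (-1.81 ± 0.36) and the TGF-beta anchor Lrrc32 (-1.59 ± 0.23) were also among the lowest. The chromatin protein Hmga2, abundant in growing embryonic cells, stood at 0, 104 and 352 CPM with both factors, against 12.0, 307 and 1555 CPM with Mef2c alone and was lower in 30 of 32 libraries (-1.57 ± 0.20, adjusted p = 8.79e-09).

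Calls among cell cycle genes depended on the cells taken. None of 20 S phase genes was called at an adjusted p under 0.05 by edgeR, 2 had an unadjusted p under 0.05, and DESeq2 called 1 lower. Of 24 genes of G2 and M phase, only Ube2c was called, as higher, and it overlaps Tnnc2, a fast troponin gene, by position, so its value is uncertain. With at least 2 Myod1 UMIs in the cells with both factors (112 pairs in 25 libraries), 11 of the 24 from G2 and M phase fell, at a median log2 fold change of -1.10, as did 3 of 20 from S phase, while 8.48% of all genes tested were higher and 6.27% lower. Among cells with Myog in both groups 5 of the 24 fell, against 3.32% of all genes. Without the 5% deepest cells 2 of 24 from G2 and M phase and 4 of 20 from S phase fell, while 9.33% of all genes were higher and 6.41% lower. Without matching on depth, 15 of 24 and 7 of 20 fell, while 8.57% of all genes were higher and 19.9% lower. The proliferation marker Mki67 stood at 0, 37.3 and 436 CPM with both factors, against 0, 93.4 and 500 CPM with Mef2c alone (-0.57 ± 0.34, adjusted p = 0.314). Among 12 genes of cell cycle exit, 4 were higher and 3 lower. Higher were the cyclin-dependent kinase inhibitor Cdkn1c (1.85 ± 0.31, adjusted p = 6.51e-06), the retinoblastoma gene Rb1 (1.58 ± 0.20, adjusted p = 1.36e-08), Ccnd3, the D-type cyclin kept by differentiated muscle (1.29 ± 0.14, adjusted p = 5.78e-11), and Gadd45a. Lower were Ccnd1 and Ccnd2, the D-type cyclins of growing cells, and Cdkn2a. Ccnd3 stood at 170, 455 and 1093 CPM with both factors, against 87.2, 187 and 365 CPM with Mef2c alone and was higher in 31 of 32 libraries.

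Of 9 Notch genes tested, edgeR called 3 higher, the ligands Dll1 and Jag2 and Hes6, an antagonist of Hes1 that promotes myogenesis. Of all genes tested, 9.08% were higher. Dll1 had 63 counts with both factors and 5 with Mef2c alone, and Jag2 had 19 and 2, near the minimum of 20 counts. DESeq2 called 1 of the 9 higher. Hes6 stood at 23.8, 437 and 2411 CPM with both factors, against 0, 32.5 and 94.4 CPM with Mef2c alone and was higher in all 32 libraries (3.55 ± 0.21, adjusted p = 3.21e-20). Of 12 genes of the insulin-like growth factor axis, 4 were higher, the imprinted pair Igf2 and H19 and the binding proteins Igfbp3 and Igfbp5, and 2 were lower, Igfbp6 and Igfbp7. H19, a noncoding RNA abundant in fetal muscle, stood at 2022, 6920 and 15170 CPM with both factors, against 146, 2859 and 10100 CPM with Mef2c alone (1.67 ± 0.23, adjusted p = 1.17e-07, higher in 30 of 32). Igf2 differed by 0.75 ± 0.17 (adjusted p = 8.69e-04, higher in 24 of 32). The ranges of both genes overlapped widely.

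Of 39 factors of the pool tested, 7 were higher (Cdkn1a, Mef2a, Gata6, Smarcd3, Mef2d, Meis1 and Mesp1), against 9.08% of all genes tested, and 3 lower (Lbh, Hdac1 and Nr2f2), against 6.49%. None was called without cells with Myog (37 tested) or with exactly 1 Myod1 UMI (34 tested), settings with fewer pairs. Of all genes tested, 1.26% were higher and 0.724% lower in the first of these settings, and 1.08% and 0.252% in the second. No call among so few genes is near these shares. Gata6, a cardiac zinc finger factor, stood at 0, 93.3 and 461 CPM with both factors, against 0, 28.8 and 217 CPM with Mef2c alone (1.41 ± 0.24, adjusted p = 1.19e-05, higher in 25 of 32). Mef2a, a relative of Mef2c, stood at 112, 337 and 1282 CPM with both factors, against 59.9, 150 and 261 CPM with Mef2c alone (1.31 ± 0.17, adjusted p = 1.59e-08, higher in 29 of 32). The E protein gene Tcf3 (0.00 ± 0.17, adjusted p = 0.995), Hand2 (-0.09 ± 0.42, adjusted p = 0.938) and the smooth and cardiac muscle coactivator Myocd (1.49 ± 0.55, adjusted p = 0.0612) were not called. Without cells that held a UMI of Myocd, Gata4, Gata6, Hand2, Tbx5, Mesp1 or Nkx2-5 (39 pairs in 10 libraries, a setting chosen after seeing the data), 542 genes (6.34%) were higher and 333 (3.9%) lower, and 16 of 17 fast and embryonic sarcomere genes tested were higher.

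Of 38 tested markers of 5 other cell types, 5 (13.2%) were called, near the 15.6% of all genes tested. Of 6 macrophage genes tested, 1 was higher (Mrc1, with 21 counts with both factors and 2 with Mef2c alone), and the list of 15 summed to 0, 32.1 and 202 CPM with both factors and 0, 26.6 and 1460 CPM with Mef2c alone. One of 6 endothelial genes was lower (Flt1), none of 12 mesothelial genes was called by edgeR (1 at an unadjusted p under 0.05, and none by DESeq2), and 1 of 8 glial genes was higher (Erbb3) and 1 lower. One of 6 adipocyte genes was higher, Cd36, a fatty acid transporter that muscle also makes, with 186 counts with both factors and none with Mef2c alone. All 7 tested genes of the mitochondrial genome were higher, by 0.53 to 0.64 on the log2 scale. The electron transport gene mt-Cytb stood at 785, 1831 and 4226 CPM with both factors, against 526, 1288 and 2093 CPM with Mef2c alone. None of the 7 was called without cells with Myog (median log2 fold change 0.22), with 1 or 2 Mef2c UMIs (0.14), with exactly 1 Myod1 UMI (0.41) or in PZ58 (0.55), and 2 were called in the libraries with high Rps27a (0.63). Of all genes tested, 1.26%, 1.42%, 1.08%, 2.26% and 3.21% were higher in these settings, in the same order. The fast and embryonic sarcomere genes were still higher there, in 7 of 15, 11 of 13, 12 of 15, 16 of 18 and 17 of 18 tested. The part of the mitochondrial genes in the differences of the muscle genes was not tested.

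Cells with both factors differed widely among themselves. Of 194 such cells, 94 (48.5%) held a Myog UMI, against 7 of 194 (3.61%) with Mef2c alone. After thinning every cell to 5000 UMIs, 178 cells with both factors and 182 with Mef2c alone remained, of which 40.4% with both factors and 1.65% with Mef2c alone had Myog. Myh3 was found in 34.8% of thinned cells with both factors and 0.549% with Mef2c alone, Chrna1 in 37.1% with both factors and 1.10% with Mef2c alone, and Actn2, a Z-disc gene, in 42.7% with both factors and 1.65% with Mef2c alone. Tnnt2 was found in 78.7% of thinned cells with both factors and 29.7% with Mef2c alone, and Myh6 in 16.9% with both factors and 1.10% with Mef2c alone. All 6 differences passed a two-sided sign-flip permutation test over 32 libraries with Benjamini-Hochberg adjustment over the 6 genes, at an adjusted p of 1e-05, the smallest that 100000 resamples can give, or 2e-05 for Myh6. Myog was more frequent with both factors in 27 of 32 libraries and equal in 5. As a measure of free RNA in the droplets, 28 cells with 4 or more of 8 macrophage markers (median depth 6699 UMIs, not thinned) held no UMI of Myod1, Myog, Myh3, Actn2 or Myh6, which allows a share of up to 10.7% of cells with a UMI for each. Chrna1 was found in 7.14% of them, Mylpf in 17.9% and Tnnt2 in 25.0%, against 4.51%, 13.7% and 45.7% of all other cells (median depth 8583 UMIs). So few cells do not set the background closely. Shares within these bounds, such as those of Myog, Myh3, Chrna1, Actn2 and Myh6 in cells with Mef2c alone, are not read as expression. For Tnnt2, the exact counting interval of these 28 cells was 10.7% to 44.9%. The Tnnt2 share of 29.7% in thinned cells with Mef2c alone lies within it and is not read as expression either.

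The 94 cells with Myog held a median of 306 UMIs of the fast and embryonic sarcomere list per 10000, and 68.8 of the fibroblast list. The 100 cells with both factors and no Myog UMI held medians of 1.42 sarcomere and 260 fibroblast UMIs per 10000, and the 194 matched cells with Mef2c alone 0.733 and 319. The cells with both factors that lacked Myog thus lay nearer to the cells with Mef2c alone than to the cells with Myog in both lists.

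**Figure D3:**
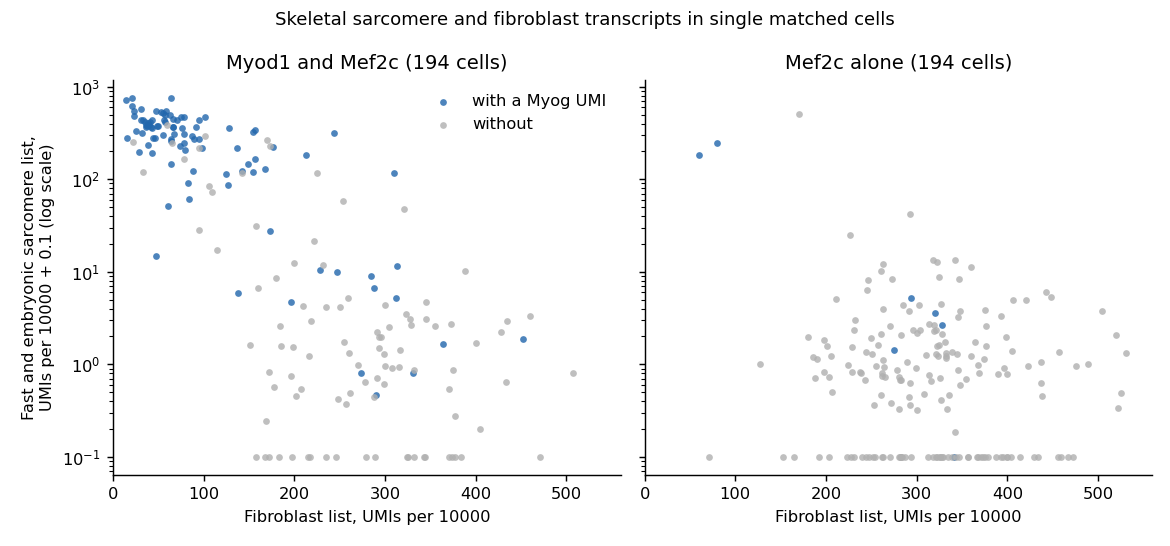
Each point is 1 of 194 cells with Myod1 and Mef2c (left) or 1 of 194 matched cells with Mef2c alone (right), with the summed fibroblast list on the x axis and the summed fast and embryonic sarcomere list plus 0.1 on a log y axis, both in UMIs per 10000. Cells with a Myog UMI (blue) gather at the upper left of the first panel, and most cells without one (grey) lie low in both, though 11 of 100 with both factors and 1 of 187 with Mef2c alone lie over 100 sarcomere UMIs per 10000.

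The share of cells with Myog was larger where more UMIs of the factors were counted. Among cells with both factors, Myog was found in 25.4% of 71 cells with 1 Myod1 UMI, 43.8% of 48 cells with 2, 68.9% of 45 cells with 3 to 5 and 76.5% of 34 cells with 6 or more. By the Mef2c count, it was found in 10.4% of 48 cells with both factors and 1 Mef2c UMI, against 2.61% of 1266 cells with Mef2c alone. At 2 to 4 Mef2c UMIs the shares were 28.0% of 50 cells with both factors and 6.48% of 633 cells with Mef2c alone. At 5 or more they were 77.0% of 100 cells with both factors and 20.3% of 133 cells with Mef2c alone. Myog was found in 6.49% of 154 cells with Myod1 alone and in 2.33% of 6179 cells with neither. These shares are not thinned, carry no test and pool cells over libraries. Those of 10.4% and less lie within the 10.7% of cells that the macrophage-type cells allow for Myog, and are not read as expression. Since Mef2c is a target of the myogenic factors, a high Mef2c count before and after the onset of the programme cannot be told apart here.

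**Figure D4:**
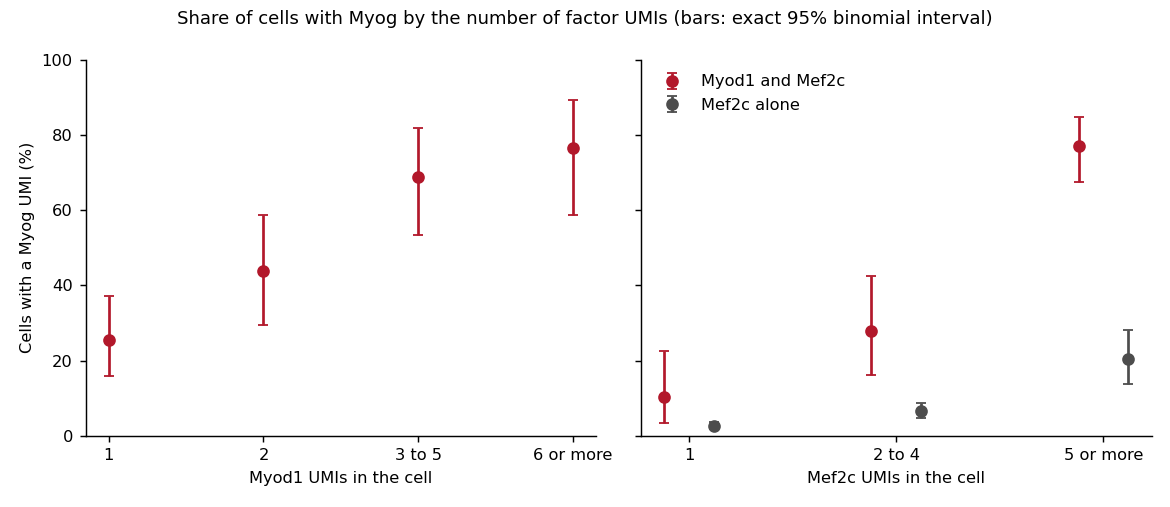
Percentage of cells with a Myog UMI by the number of Myod1 UMIs (left) and Mef2c UMIs (right), for cells with Myod1 and Mef2c in red and cells with Mef2c alone in grey, with exact 95% binomial intervals that cover counting error only. The share is between 25.4% and 76.5% over the Myod1 bins and reaches 77.0% at 5 or more Mef2c UMIs with both factors, against 20.3% with Mef2c alone.

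Leaving out all cells with a Myog UMI left 70 pairs in 14 libraries and 11467 genes tested, of which 144 (1.26%) were higher and 83 (0.724%) lower. Of the fast and embryonic sarcomere genes, 7 of 15 tested were still higher, of the shared sarcomere genes 16 of 23, and of the receptor and synapse genes 4 of 5, whereas 1 of 24 fibroblast genes was lower and 1 higher. Col1a1 then differed by 0.01, against -0.85 over all pairs. These calls are on summed counts and do not describe the typical cell. Of the 100 cells with both factors and no Myog in the main matching, 11 held over 100 fast and embryonic sarcomere UMIs per 10000 (highest 390), against a median of 1.42. The part of these few cells in the calls was not tested. Among cells with Myog in both groups (60 pairs in 28 libraries, 10265 genes), 599 (5.84%) were higher and 341 (3.32%) lower. The cells with both factors then had medians of 13618 UMIs and 18.5 Mef2c UMIs, and those with Mef2c alone 10867.5 and 2. The share of Myog in cells with Mef2c alone lay within the bound for free RNA, so the groups need not be alike in Myog. All 18 fast and embryonic sarcomere genes were higher in that setting, at a median log2 fold change of 3.03, and 17 of 23 fibroblast genes lower. With only 1 Myod1 UMI in the cells with both factors (51 pairs in 13 libraries, a setting chosen after seeing the data), 111 genes (1.08%) were higher and 26 (0.252%) lower, 12 of 15 fast and embryonic sarcomere genes among the higher ones, while none of 24 fibroblast genes was called, at a median of -0.43. With 1 or 2 Mef2c UMIs, 2 of 24 fibroblast genes were lower and 1 higher, at a median of -0.29.

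Myod1 without Mef2c was compared next, since the design allows the Myod1 contrast with and without Mef2c. In 22 libraries, 150 cells with both factors, 150 with Mef2c alone, 127 with Myod1 alone and 127 with neither were summed, and 13427 genes were tested. Cells with Myod1 alone were higher than cells with neither in 98 genes (0.73%) and lower in 11 (0.0819%), 0.812% in all. The Myod1 contrast differed with Mef2c, by the interaction term, in 98 genes (0.73%), 65 (0.484%) upward and 33 (0.246%) downward. Cells with both factors had a median of 16825 UMIs and a mean of 3.87 Myod1 UMIs, and cells with Myod1 alone a median of 11010 UMIs and a mean of 1.51 Myod1 UMIs. The part of these differences in the interaction was not tested.

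Some muscle genes were already higher with Myod1 alone, with levels under, near or above those of cells with both factors. Cdh15 stood at 66.5 CPM with Myod1 alone and 2.03 CPM with neither (log2 fold change 4.51, adjusted p = 2.89e-12), and at 164.8 CPM with both factors and 5.90 CPM with Mef2c alone, which gives an interaction of 0.08 (adjusted p = 0.989). The receptor clustering gene Rapsn stood at 27.7 CPM with Myod1 alone and 2.03 CPM with neither (3.28, adjusted p = 4.43e-05), and at 52.6 CPM with both factors and 4.62 CPM with Mef2c alone. Des (2.60, adjusted p = 8.75e-07), the receptor subunit Chrnb1 (2.44, adjusted p = 4.43e-05) and Igfbp5 (2.80, adjusted p = 3.58e-05) were higher with Myod1 alone too, Igfbp5 at 1073 CPM with Myod1 alone and 279 CPM with neither, and at 860 CPM with both factors and 274 CPM with Mef2c alone. Ttn, Myl1 and Casq2 were called with Myod1 alone, at log2 fold changes of 3.62, 4.30 and 4.05, and their interaction did not pass the test. A p that misses the threshold does not show that the contrast was the same. Counts were simulated with a fixed dispersion, no library effects beyond total counts, and changes only in genes of at least 100 counts. There the interaction test found 21 of 100 genes with a 2-fold and 76 of 100 with a 4-fold interaction. Its power on the real sums, and for genes with fewer counts, was not measured.

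Other muscle genes differed with Mef2c in the cell. Mylpf stood at 2750 CPM with both factors, 69.0 CPM with Mef2c alone, 21.2 CPM with Myod1 alone and 11.2 CPM with neither, an interaction of 5.45 (adjusted p = 2.88e-05). Acta1 stood at 2643 CPM with both factors, 232 CPM with Mef2c alone, 87.7 CPM with Myod1 alone and 72.1 CPM with neither, an interaction of 4.46 (adjusted p = 5.40e-05), and its contrast with Myod1 alone was 0.32 (adjusted p = 0.936). Chrna1 had 1056 counts with both factors, 11 with Mef2c alone, 5 with Myod1 alone and 4 with neither (5.92, adjusted p = 0.00687), and its interaction was not called without the 5% deepest cells (5.73, adjusted p = 0.0915). Ankrd2, Mymx and Neb, the gene of the thin filament ruler nebulin, had 1993, 542 and 855 counts with both factors and at most 9 in each of the other sets, and fitted interactions of genes this low depend on the prior count of the model. Of the 18 fast and embryonic sarcomere genes, 4 passed the interaction test and 3 were higher with Myod1 alone, and of the 27 shared sarcomere genes, 3 and 8. None of the 18 calcium handling genes passed edgeR's interaction test, and 3 were higher with Myod1 alone. Of all 13427 genes tested, 0.73% passed the interaction test and 0.73% were higher with Myod1 alone. An unadjusted interaction p under 0.05 was found for 6 of the 18 and for 1449 of all 13427.

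Hes6 passed both, with a contrast of 1.68 with Myod1 alone (adjusted p = 7.02e-04) and an interaction of 2.01 (adjusted p = 0.00592). The interaction was negative for the myosin light chain kinase gene Mylk, which stood at 109 CPM with both factors and 193 CPM with Mef2c alone, and at 463 CPM with Myod1 alone and 110 CPM with neither (-2.70, adjusted p = 0.00486). Caldesmon (Cald1), an actin-binding protein of smooth muscle and fibroblasts, differed by -0.73 with Mef2c and by -0.04 without it (interaction -0.70, adjusted p = 0.0409).

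**Figure D5:**
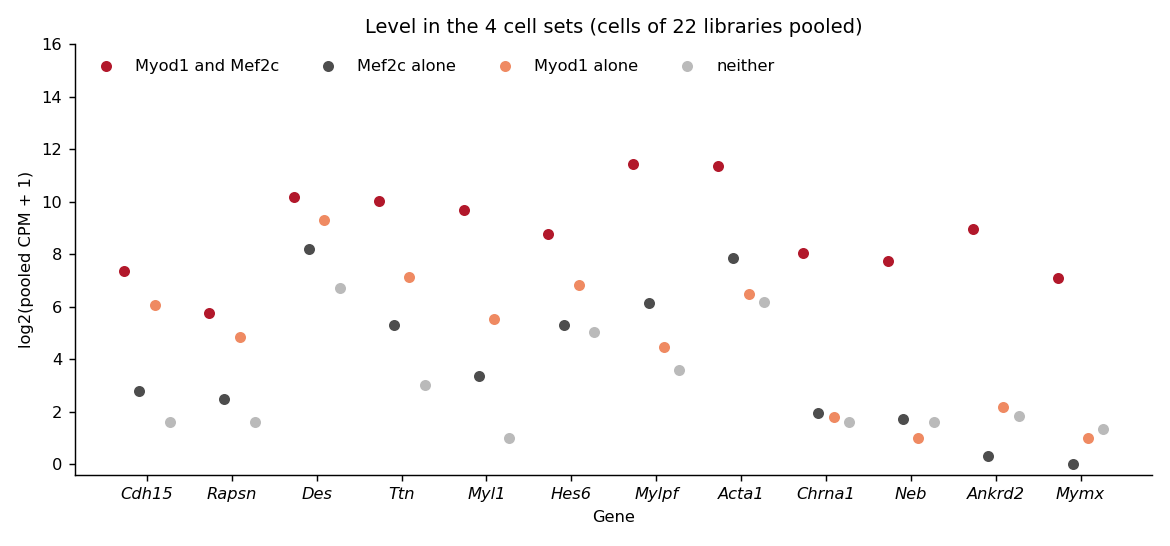
Level of 12 genes as log2(pooled CPM + 1) over the cells of 22 libraries, for cells with Myod1 and Mef2c, Mef2c alone, Myod1 alone and neither, from left to right within each gene. The Myod1-alone points of Cdh15, Rapsn and Des lie under those of cells with both factors and above those of the other 2 sets. Cdh15 is at 66.5 CPM with Myod1 alone and 164.8 CPM with both factors, and Des at 636 and 1157 CPM. The Myod1-alone points of Chrna1, Neb, Ankrd2 and Mymx lie near the cells with neither.

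Calls in both directions were made in each library series. JD alone gave 590 higher (4.86%) and 179 lower genes (1.47%), PZ47-PZ48 588 (5.31%) and 408 (3.68%), and PZ58, with 25 pairs, 189 (2.26%) and 56 (0.669%). In the 9 libraries with high Rps27a, 328 genes (3.21%) were higher and 109 (1.07%) lower, and in the 23 with low Rps27a 1016 (7.97%) and 532 (4.17%). Of the fast and embryonic sarcomere genes, 17 of 18, 18 of 18 and 16 of 18 were higher in JD, PZ47-PZ48 and PZ58, and 17 of 18 and 18 of 18 in the libraries with high and low Rps27a. Of 24 fibroblast genes, 10 were lower in JD, 11 in PZ47-PZ48, 6 with high and 17 with low Rps27a, and 3 of 23 tested in PZ58.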

How the data were processed

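Per the submitters' processing notes, build mm10 was used with STAR 2.5.3a, featureCounts 1.5.3, bcl2fastq 2.17.1.14 and UMI-tools. Which annotation and strand setting were used, how cells were filtered and how multiply mapped reads were treated is not given in the sources used here. As deposited, the 37 tables hold raw, unnormalized counts for each gene and barcode, 27999 rows each, with 8730 barcodes and 121818134 counts in all. Of the Ensembl identifiers, 27645 of 27998 matched a symbol. Technical replicates 4 and 6 shared 59 barcodes and were merged. Dropping 89 shared and 78 near-identical barcodes left 8563 cells in 36 libraries, whose median cell held 8558 UMIs (3563 to 15695 per library). No doublet caller was run, and the effect of doublets was tried by leaving out the 5% deepest cells of each library.

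Cells were paired within library by optimal matching on log total UMIs (median ratio 1.02, highest 1.58). Sums per library and cell set were tested with edgeR 4.0.16 (TMM, quasi-likelihood, library as a block, at least 20 counts, Myod1 and Mef2c left out), with DESeq2 1.42.0 as an alternative, under R 4.3.3. SE is the log2 fold change over the root of the F statistic, and fitted folds of genes with 0 counts in 1 group depend on the prior count. On simulated data the paired test found 80 of 100 genes changed 2-fold and 100 of 100 changed 4-fold, with 1 false call, and the interaction test made 4 false calls. The simulation used a fixed dispersion and no library effects beyond total counts, and changed only genes of at least 100 counts. Its rates need not hold for the real sums. Floors are 3 counts, and intervals are exact (Clopper-Pearson or the conditional binomial for ratios).

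The groups, gene lists and named genes were chosen with earlier results of these data known. The named genes were the 10 highest and 10 lowest called fold changes with 1 sign in all 3 series, up to 4 called members per list, a set of muscle, fibroblast and factor genes, and the 5 highest and 5 lowest interactions. Those named beyond them were chosen after their values were seen, and a few chosen by the rule are not reported here. Of 109 genes chosen by this rule, 33 overlap another gene by position, Ttn, Neb, Des, Ckm, Mb, Gja5, Tagln, Igf2, Cdkn1c, Rb1, Ccnd3, Mef2a, Gata6, Dll1, Syn3, Timp3 and Tnnc2 among them, and their counts are uncertain without a stated strand. Overlaps were read from GENCODE M21 (GRCm38), and the authors may have counted on another annotation.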

Additional observations from a re-analysis of the deposited data

Results flagged for a closer look

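The results below stood out because the Myod1 contrast differed between cells with and without Mef2c by a test of the difference itself, the interaction term of edgeR's quasi-likelihood fit over 22 libraries. The term was called upward in 65 genes and downward in 33 of 13427, and 63 of the upward genes were also higher, and 32 of the downward genes also lower, in the comparison of cells with both factors and cells with Mef2c alone. The 2 comparisons share the cells with both factors and those with Mef2c alone, so this overlap is no separate evidence. Without the 5% deepest cells of each library, which can hold doublets, 58 genes were called upward and 40 downward, of which 43 were among the 65 and 12 among the 33. Among the genes named here, Chrna1 (adjusted p = 0.0915), Gabra4 (0.124), Lurap1l (0.175), Timp3 (0.114) and Syn3 (0.116) were then no longer called by edgeR.

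The 5 largest upward terms were those of Ankrd2 (8.22 on the log2 scale), Mymx (7.55), Neb (6.64), Tnnc2 (6.57) and Chrna1 (5.92). All 5 are muscle genes whose counts in cells with Myod1 alone, between 2 and 7, were like those in cells with neither, between 3 and 7. The 5 largest downward terms were those of the receptor subunit gene Gabra4 (-3.43), with 17, 29, 18 and 1 counts in cells with both factors, Mef2c alone, Myod1 alone and neither, Mylk (-2.70), Lurap1l (-1.92), and the overlapping pair Timp3 (-1.57) and Syn3 (-1.55), whose counts cannot be told apart without strand. Timp3 stood at 639 CPM with both factors and 850 CPM with Mef2c alone, and at 1087 CPM with Myod1 alone and 712 CPM with neither.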

How the results depend on the processing

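Other scalings, count minimums and detection thresholds kept both counts within 1.5 times of 1200 higher and 857 lower genes, except those given here. Without matching, 3080 genes were lower. Matched on the Mef2c count, 691 were higher and 458 lower. Within the series, JD gave 590 and 179, PZ47-PZ48 588 and 408, and PZ58 189 and 56, and the libraries with high Rps27a gave 328 and 109, while those with low Rps27a gave 532 lower. Without cells with Myog there were 144 and 83, and with only such cells 599 and 341. The settings added after seeing the data gave 147 and 40 (1 or 2 Mef2c UMIs), 111 and 26 (exactly 1 Myod1 UMI) and 542 and 333 (without 7 other factors). These settings use fewer pairs or genes, apart from the unmatched one, and what else moved the counts was not tested. Without the library as a replicate block, 1336 were higher and 816 lower, and the interaction gave 75 and 24. Without the 5% deepest cells, tried for doublets, 1127 were higher and 775 lower, 974 and 597 of them among the 1200 and 857. Without technical replicate 4, which has the most cells with both factors, 1125 were higher and 741 lower. DESeq2 called 17 of 18 fast and embryonic and 23 of 27 shared sarcomere genes higher, 12 of 18 calcium handling genes and 10 of 16 energy genes. Genes with few or no counts with Mef2c alone could be tested only through the cells with both factors. The interaction gave 194 upward and 87 downward genes with DESeq2, and 131 and 142 with every gene of at least 1 count. All 6 differences in the share of cells kept their direction and their side of the threshold under every setting tried.

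Over the genes named in the text and the settings, 2129 values of called genes kept their direction and call, 257 lost the call and 24 changed sign. With PZ58 alone, Ccnd2 (0.0091), Grem1 (0.67), Id3 (0.32) and Mylk (0.0427) turned positive and Mef2d (-0.0543) negative, and with high Rps27a, Grem1 (0.98) and Mef2d (-0.12). Without Myog cells, Col1a1 (0.0103), Syn3 (0.43) and Timp3 (0.49) turned positive and Tpm2 (-0.42) negative. With 1 or 2 Mef2c UMIs, Col11a1 (0.36), Col1a1 (0.11), Col5a2 (0.17), Flt1 (0.62), Runx2 (0.04), Syn3 (0.62) and Timp3 (0.65) turned positive and Cdkn1a (-0.0526) negative. With exactly 1 Myod1 UMI, Col11a1 (0.61), Mylk (0.43), Runx2 (0.16), Syn3 (0.19) and Timp3 (0.19) turned positive. The cause was not tested.

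Depth limits low genes most. A gene without a UMI in the 194 cells of a group allows a share of up to 1.55% of cells with a UMI, which is no limit on cells that express it, and the interaction rests on 127 shallower cells with Myod1 alone.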

Other observations

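Other genes chosen by the same rule also stood high in cells with both factors. Arpp21, a cyclic AMP regulated phosphoprotein gene, had 803 counts with both factors and 5 with Mef2c alone, at 0, 202 and 504 CPM with both factors, against 0, 0 and 21.4 CPM with Mef2c alone, and was higher in 31 of 32 libraries (log2 fold change 6.47 ± 0.24, adjusted p = 2.09e-27 by edgeR). Slow troponin I (Tnni1), which embryonic heart and skeletal muscle both make, stood at 23.8, 1894 and 6789 CPM with both factors, against 0, 5.72 and 501 CPM with Mef2c alone and was higher in all 32. The ADP-ribosyltransferase gene Art1, whose product sits on the muscle cell surface, stood at 0, 59.6 and 720 CPM with both factors, against 0, 0 and 34.5 CPM with Mef2c alone (5.41 ± 0.29, adjusted p = 7.75e-21, higher in 29 of 32), and it overlaps Chrna10 by position.

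None of 11 immediate early genes tested was called by edgeR (2 had an unadjusted p under 0.05), at a median log2 fold change of -0.25, and DESeq2 called none either. Of 7 cartilage and bone genes tested, 3 were lower (Col2a1, Col11a1 and Runx2) and none higher.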
